A study of Saccharomyces cerevisiae with 36 samples.

Results

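Transcript levels of 5 genes linked to the breakdown of aromatic amino acids were followed in Saccharomyces cerevisiae, the budding yeast, across 6 natural isolates and 3 growth media. The genes were taken by their locus names: ARO9 (YHR137W), ARO10 (YDR380W), ESBP6 (YNL125C), ARO80 (YDR421W) and BAT2 (YJR148W), which are 5 of the 6717 features in the deposited expression matrix. All 5 passed the filter on low values. Both catabolic genes, ARO9 and ARO10, were higher in hydrolysate with toxins than without, by 2.58-fold and 4.44-fold on average, but within single strains the difference ran from 123-fold (ARO10 in NCYC361) to values that did not pass the test. Within 1 medium, ARO9 differed between the highest and the lowest strain by 33.9-fold to 241-fold. The level of the activator gene ARO80 showed little correlation with either, and BAT2 was highest in YPD in every strain.

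By their labels, 3 isolates resist the hydrolysate (UWO.S05.22-7, YPS128 and Y7568), 2 are sensitive to it (K11 and NCYC361) and NCYC3290 has a medium resistance. All are labelled wild strains, and no engineered allele is named for any of them. Each was grown in YPD, a rich medium of yeast extract, peptone and glucose, in SynH, a synthetic version of the liquor obtained from pretreated plant biomass with its toxins, and in SynH -HTs, the same recipe lacking the toxins. Each strain and medium had 2 biological replicates from different days, which makes 36 libraries in 18 groups, and p-values below measure the spread between such libraries unless strains are named as the unit. The SynH cultures of NCYC361 are titled SynHv, and their medium label reads SynH.

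Yeast breaks down phenylalanine, tyrosine and tryptophan by the Ehrlich pathway: an aminotransferase removes the amino group, a decarboxylase turns the resulting oxo acid into an aldehyde, and the aldehyde is reduced to a fusel alcohol or oxidised to an acid. ARO9 encodes an aromatic aminotransferase and ARO10 the phenylpyruvate decarboxylase of this route, and both are known targets of Aro80, a zinc cluster activator that responds to aromatic amino acids. Aro80 binds repeats of the triplet CCG spaced by a fixed number of bases. ESBP6 encodes a membrane protein similar to monocarboxylate transporters and is also a known Aro80 target. BAT2 encodes the cytosolic aminotransferase for branched-chain amino acids, which works in the same kind of pathway and is best known as a target of other regulators.

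The reference promoters carried the spaced triplets in different numbers, and they are shown because they are the sequence known to be read by Aro80. The motif searched was CCGNNNNNNNCCG, on both strands, in the 500 bases before each start codon of the S288C reference (RefSeq, R64), and overlapping matches were joined into arrays. In the stretches below, written along the strand of each gene with 25 bases on either side, capitals mark the triplets of the longest array. They lie at chrVIII:375519-375601 (plus strand) for ARO9, chrIV:1233851-1233933 (plus strand) for ARO10, chrXIV:392495-392557 (minus strand) for ESBP6 and chrIV:1311873-1311935 (plus strand) for ARO80.
ARO9: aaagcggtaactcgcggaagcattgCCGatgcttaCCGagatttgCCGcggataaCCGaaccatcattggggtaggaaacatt
ARO10: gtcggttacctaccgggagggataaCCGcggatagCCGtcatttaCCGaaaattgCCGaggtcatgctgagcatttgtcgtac
ESBP6: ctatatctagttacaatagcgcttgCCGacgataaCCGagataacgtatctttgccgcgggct
ARO80: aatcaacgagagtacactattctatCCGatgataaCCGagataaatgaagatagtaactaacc
The isolates' own promoters may differ from these reference letters.

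ARO9 had an array of 4 triplets 165 to 133 bases before its start codon and 2 further pairs, and ARO10 an array of 4 at 342 to 310 bases with 1 further pair on the other strand. ESBP6 held 2 separate pairs and ARO80 a single pair at 142 to 130 bases, while no pair lay in the BAT2 window. Of 6027 reference promoters, 320 (5.31%) held at least 1 pair, and 6 (0.0996%) held an array of at least 4, so such arrays were rare. Those 6 include ARO9 and ARO10 and their divergent neighbours SPL2 and SDH6, which share the same intergenic stretch, besides SOH1 and ASK1. The sequence GATAAG, a form of the site read by GATA factors of nitrogen control, was in 22.7% of promoters and in none of the 5 members' windows on either strand. The shorter GATAA does occur in each stretch printed above. The SPL2 window held 1 GATAAG, which is not within the ARO9 window. A match describes letters and not binding, and no match says only that these letters are not in this window.

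**Figure D1:**
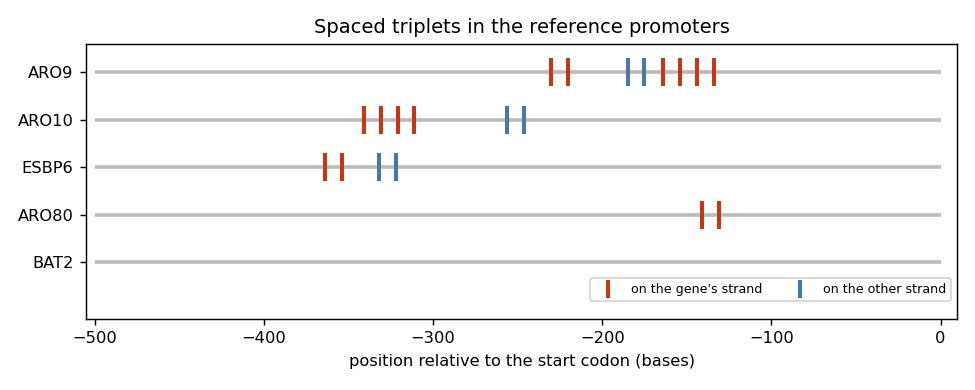
Positions of CCG triplets spaced by 7 bases in the 500 bases before the start codon of each gene in the reference genome (x axis, bases relative to the start codon). Red marks lie on the strand of the gene and blue marks on the other strand. ARO9 and ARO10 each carry an array of 4, ESBP6 carries 2 pairs, ARO80 carries 1 pair and BAT2 none.

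Libraries held 2205293 to 32838987 reads in genes, and all but the deepest held at most 8047447. Levels are given as log2 RPKM, a read number scaled for the length of the gene and the size of the library, to which the authors had added 1 read before taking the logarithm, and a log2 change includes that read. None of the 5 genes overlaps another annotated gene, and the longest exact stretch any of them shares with another coding sequence is 17 to 19 bases. The median change over the 5927 tested features was 0.09 for SynH against SynH -HTs, -0.31 for SynH -HTs against YPD and -0.23 for SynH against YPD, so the typical feature did not stay at 0. In every strain replicate 2 in SynH -HTs had a lower median over all features than replicate 1, with differences of -1.06 to -0.43, so members are also given relative to these shifts where it matters.

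ARO9, the aminotransferase gene, spanned 16 to 15538 reads and was the member with the highest level. In UWO.S05.22-7 it stood at 9.60 and 9.39 log2 RPKM in the 2 YPD libraries, 9.88 and 9.94 in SynH -HTs, and 9.90 and 9.62 in SynH. All 6 of these libraries lay above the other 30, whatever the medium. In NCYC361 the values were 6.14 and 6.33 in YPD, 2.78 and 2.91 in SynH -HTs, and 6.79 and 6.79 in SynH, so that the toxin-free hydrolysate was the low condition. K11 ran the other way, with 1.35 and 1.81 in YPD, 3.45 and 2.86 in SynH -HTs, and 4.68 and 4.67 in SynH. NCYC3290 had the same order of media as K11, with 2.28 and 1.56, then 3.50 and 3.72, then 5.33 and 5.46. In Y7568 the values were 2.62 and 2.93 in YPD, 5.21 and 5.90 in SynH -HTs, and 5.98 and 6.12 in SynH. YPS128 was close to it, with 2.40 and 2.36, then 5.58 and 5.58, then 6.20 and 6.21. Media did not overlap within these 4 strains, each of which was lowest in YPD and highest in SynH.

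Ordered by group mean, ARO9 ran from 9.91 in UWO.S05.22-7 in SynH -HTs to 1.58 in K11 in YPD. The ranges of the 2 libraries overlapped for 7 of the 17 neighbours in that order. In YPD UWO.S05.22-7 was 9.58-fold above the next strain, NCYC361, and 241-fold above K11, the lowest. In SynH the spread between highest and lowest strain was 33.9-fold. The range of the 18 group means, 8.33, was the 71st widest of the 5927 tested features, whose median range was 2.11.

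ARO10, the decarboxylase gene, had the widest range of the 5 members. In UWO.S05.22-7 it stood at 6.25 and 5.70 in YPD, 7.70 and 7.48 in SynH -HTs, and 8.05 and 7.78 in SynH, the highest strain in each medium. In NCYC361 it stood at 4.86 and 5.18 in YPD, -1.44 and -0.62 in SynH -HTs, and 5.77 and 6.06 in SynH. The low pair came from 3 and 5 reads, against 598 and 443 reads in SynH. K11 had -1.33 and -0.98 in YPD, from 5 and 4 reads, then 2.72 and 2.30 in SynH -HTs and 3.05 and 3.05 in SynH. NCYC3290 was ordered by medium, with 0.97 and 0.33, then 2.44 and 2.55, then 4.93 and 5.52. Y7568 had -0.19 and 1.36 in YPD, 3.92 and 4.30 in SynH -HTs, and 5.36 and 5.50 in SynH. In YPS128 the values were 0.39 and 0.65, then 4.59 and 4.59, then 5.47 and 5.81. In 5 strains the 3 media were ordered YPD, SynH -HTs, SynH without overlap, and NCYC361 was the exception.

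By group mean ARO10 ran from 7.91 in UWO.S05.22-7 in SynH to -1.15 in K11 in YPD, and 9 of 17 neighbours in the order overlapped. That range of 9.06 ranked 47th among all tested features. NCYC361 in SynH -HTs, at -1.03, lay 8.62 below UWO.S05.22-7 in the same medium, a 392-fold gap that depends on the added read.

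ESBP6, the transporter-like gene, was the steadiest member, between 3.17 and 6.53 in all 36 libraries. UWO.S05.22-7 was again the highest strain in each medium, with 6.07 and 5.71 in YPD, 6.26 and 6.53 in SynH -HTs, and 6.52 and 5.93 in SynH. Its libraries lay above those of the other strains in all 3 media, by 4.09-fold over the next strain in SynH -HTs. The other 5 strains lay closer together, with group means between 3.22 and 5.12. Of the 17 neighbours in the order of the 18 means, 14 overlapped.

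ARO80, the activator gene, was the lowest member by median, 2.38 over the libraries against 5.40 for ARO9 and 4.44 for ARO10. Its highest group was NCYC361 in YPD, at 4.25 and 4.39, which was 3.08-fold above the next strain in that medium. The median over all features was also highest in these YPD libraries, at 4.81 and 4.83, against at most 4.29 in the other strains. Part of that gap is therefore shared with the typical feature. The lowest ARO80 group was YPS128 in SynH -HTs, at 1.48 and -0.13, the second from 10 reads. UWO.S05.22-7, the highest strain for the 3 genes above, had ordinary ARO80 values of 2.63 and 2.40 in YPD, 2.73 and 0.26 in SynH -HTs, and 1.94 and 2.88 in SynH. Overlap was the rule for ARO80, in 16 of 17 neighbours, so most of its order is within the spread of the replicates.

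BAT2, the branched-chain aminotransferase gene, was ordered by medium more than by strain. The 12 YPD libraries had a lowest value of 5.91, a median of 6.46 and a highest of 7.02. The 12 SynH -HTs libraries had a lowest value of 1.80, a median of 3.21 and a highest of 4.65. The 12 SynH libraries lay between, with 2.60, 4.32 and 6.44. The YPD and SynH -HTs ranges did not overlap in any strain. In each medium the highest strain was K11, the lowest strain for ARO9 and ARO10 in YPD and SynH, with BAT2 at 6.19 and 6.44 in SynH.

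**Figure D2:**
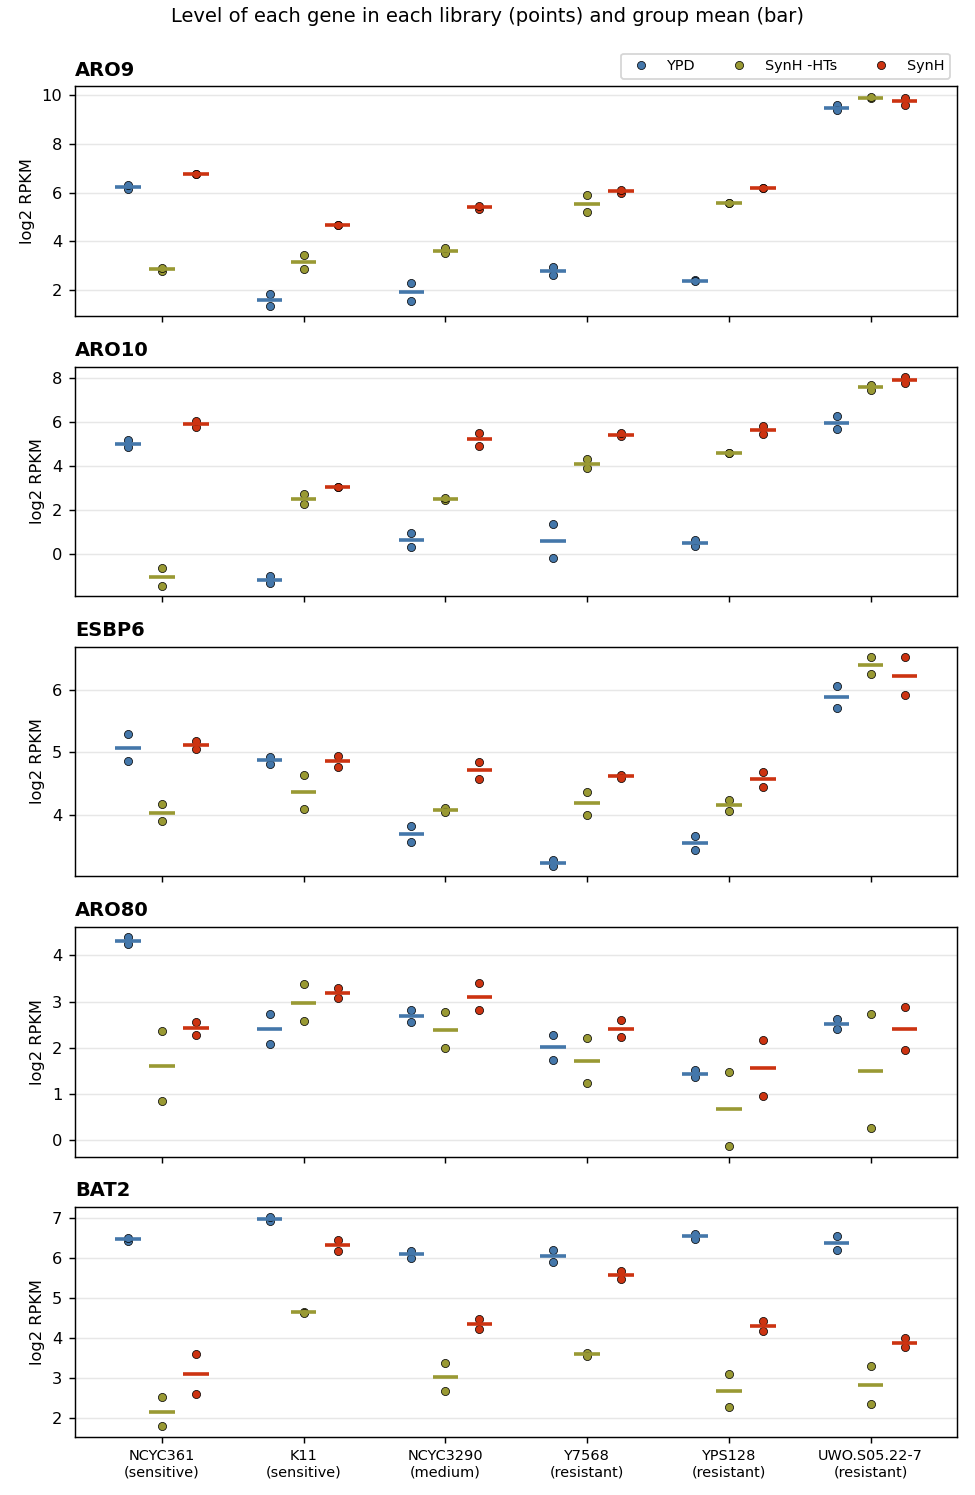
Level of each gene in log2 RPKM (y axis) in each library (points), by strain (x axis) and medium (colour), with the mean of the 2 libraries as a bar. ARO9, ARO10 and ESBP6 are highest in UWO.S05.22-7 in all 3 media, ARO9 and ARO10 in NCYC361 are lowest in SynH -HTs, and BAT2 is highest in YPD in every strain.

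SynH minus SynH -HTs addresses the toxins themselves. Averaged over the 6 strains with limma (Benjamini-Hochberg adjustment over all 5927 features, threshold 0.05), all 5 members were higher with toxins, where 19.1% of tested features were called higher. ARO10 rose by 2.15 ± 0.15 SE (4.44-fold, adjusted p = 1.65e-10). BAT2 rose by 1.43 ± 0.14 (2.69-fold, adjusted p = 1.7e-08), ARO9 by 1.37 ± 0.10 (2.58-fold, adjusted p = 1.62e-10) and ESBP6 by 0.48 ± 0.10 (1.40-fold, adjusted p = 0.000375). These 4 values are 0.39 to 2.06 above the median over all features. The averages of both catabolic genes lean on NCYC361: without it ARO10 rose by 1.19 (adjusted p = 1.79e-05) and ARO9 by 0.85 (adjusted p = 8.94e-06). ESBP6 lost its call when libraries were scaled to equal medians (0.35, adjusted p = 0.157).

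The call for ARO80 was on the threshold and rested on part of the libraries. It was 1.63-fold higher (0.71 ± 0.27, adjusted p = 0.0496, higher in 6 of 6 strain means), but without replicate 2 in SynH -HTs the value was 0.03 (adjusted p = 0.916), and without replicate 1 in SynH -HTs it was 1.38 (adjusted p = 1.36e-05). The call held under median scaling (0.57, adjusted p = 0.00505) and quantile normalization (0.51, adjusted p = 0.0201). The libraries of both media did not overlap in 2 of 6 strains. Replicate 2 in SynH -HTs lay below replicate 1 for ARO80 in all 6 strains, with a median difference of -1.24, and in SynH it lay above in all 6, with a median difference of 0.47. The median over all features moved the same way in both media, and BAT2 was likewise lower in replicate 2 in SynH -HTs in all 6 strains, with a median difference of -0.72. For ARO9, ARO10 and ESBP6 the median differences in these media lay between -0.21 and 0.26.

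**Figure D3:**
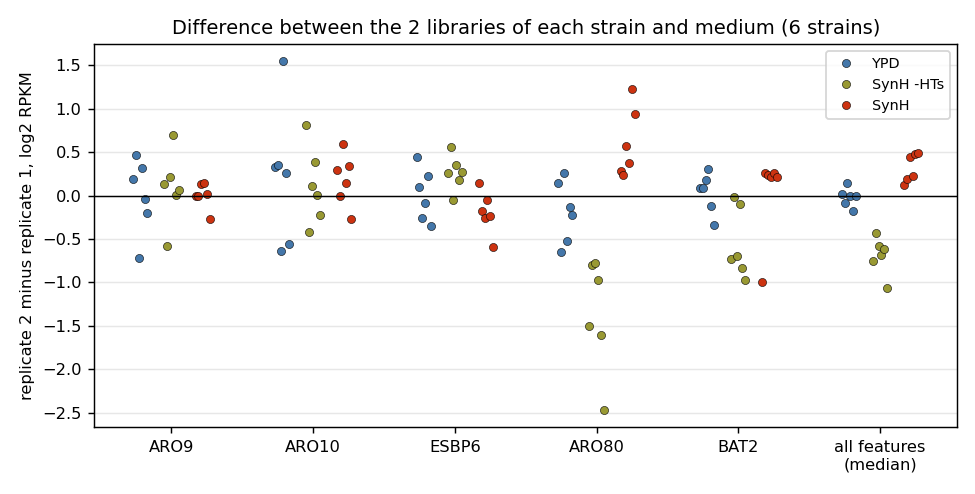
Replicate 2 minus replicate 1 in log2 RPKM (y axis) for each gene and for the median over all tested features (x axis), with 1 point per strain and colours for the media. In SynH -HTs the ARO80 points run from -2.47 to -0.78 and the all-feature medians from -1.06 to -0.43, while the ARO9 points lie on both sides of 0.

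With strains as the unit, the spread between strains enters the error. The exact two-sided sign-flip permutation test over the 6 strain responses gave p = 0.03125, the smallest it can give, for ARO10, ARO80 and BAT2, each higher in 6 of 6 strains, and p = 0.0625 for ARO9 and ESBP6, higher in 5 of 6. Over the 15 such tests the adjusted values were 0.067 and 0.0938, so none passed 0.05. A limma fit on strain responses called all 5 higher (adjusted p = 8.73e-05 to 0.0395), where 21.9% of features were called higher. In that fit without a variance trend, added after the data were seen, ARO9 (adjusted p = 0.0616) and ARO10 (adjusted p = 0.0798) did not pass, and 20.4% of features were called higher. Their strain responses had an SD of 1.45 and 2.49 log2 units, against 0.40 for BAT2 and ESBP6 and 0.26 for ARO80.

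Within strains the toxin response of ARO9 and ARO10 was concentrated in some isolates. The background of features called higher was 8.87% in NCYC361, 2.41% in K11, 4.54% in NCYC3290, 4.74% in Y7568, 5.47% in YPS128 and 2.48% in UWO.S05.22-7. Of the 30 pairs of member and strain, 11 passed the limma test as higher and none as lower, each with 2 libraries against 2. ARO10 in NCYC361 had the largest response, 6.94 ± 0.38 (123-fold, adjusted p = 5.59e-12), between 6.08 and 7.35 over the alternatives run, and rested on 3 and 5 reads without toxins. ARO9 in NCYC361 rose by 3.94 ± 0.24 (15.4-fold, adjusted p = 4.11e-11).

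In NCYC3290 ARO10 rose 6.63-fold (2.73 ± 0.38) and ARO9 3.44-fold (1.78 ± 0.24). In K11 ARO9 rose 2.87-fold (1.52 ± 0.24), whereas ARO10 had a value of 0.54 ± 0.38 that did not pass (adjusted p = 0.638). In Y7568 ARO10 rose (1.32 ± 0.38, adjusted p = 0.0357), a call lost without any 1 of its 4 hydrolysate libraries (adjusted p = 0.0746 to 0.243), and ARO9 did not pass at 0.50 ± 0.24. Without SynH -HTs replicate 2 in all strains, ARO9 in Y7568 passed (0.84, adjusted p = 0.0367 in limma). In YPS128 neither passed, with ARO9 at 0.62 and ARO10 at 1.05, but both passed with voom on recovered reads (adjusted p = 0.0434 and 0.0064). ARO10 in YPS128 also passed in limma without either YPD library of Y7568 (adjusted p = 0.0407 and 0.0416). In UWO.S05.22-7, where both were already high, ARO9 stood at -0.15 ± 0.24 and ARO10 at 0.33 ± 0.38, neither past the threshold. ARO9 libraries with toxins lay wholly above those without in 5 strains, as for 9.04% of features, and ARO10 libraries in 6, as for 4.47%.

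ESBP6 rose in NCYC361 (1.09 ± 0.23, adjusted p = 0.00259), a call lost under median scaling (adjusted p = 0.239), and lay between -0.17 and 0.63 in the other strains without passing. ARO80 passed in none of the 6 strains (0.21 to 0.92). BAT2 passed in the most strains, with a rise in K11 (1.67), NCYC3290 (1.32), Y7568 (1.98) and YPS128 (1.60) and values of 0.94 in NCYC361 and 1.06 in UWO.S05.22-7 that did not pass. At least 4 called rises among the 6 strains were found in 2.87% of tested features. The BAT2 call was lost in NCYC3290 without its SynH -HTs replicate 2 (adjusted p = 0.301) or either SynH library (0.061 and 0.187). It was also lost in K11 without SynH replicate 2 (0.0796), and in YPS128 without SynH -HTs replicate 2 (0.103) or SynH replicate 2 (0.0512). Calls were gained in NCYC361 without its SynH -HTs replicate 1 (1.30, adjusted p = 0.0362), its SynH replicate 2 (1.44, 0.0232) or either SynH -HTs library of UWO.S05.22-7 (0.0461 and 0.0462). In UWO.S05.22-7 a call was gained without its own SynH -HTs replicate 1 (1.55, adjusted p = 0.0173). Without SynH replicate 2 in all strains, 5 of the 30 pairs passed instead of 11.

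**Figure D4:**
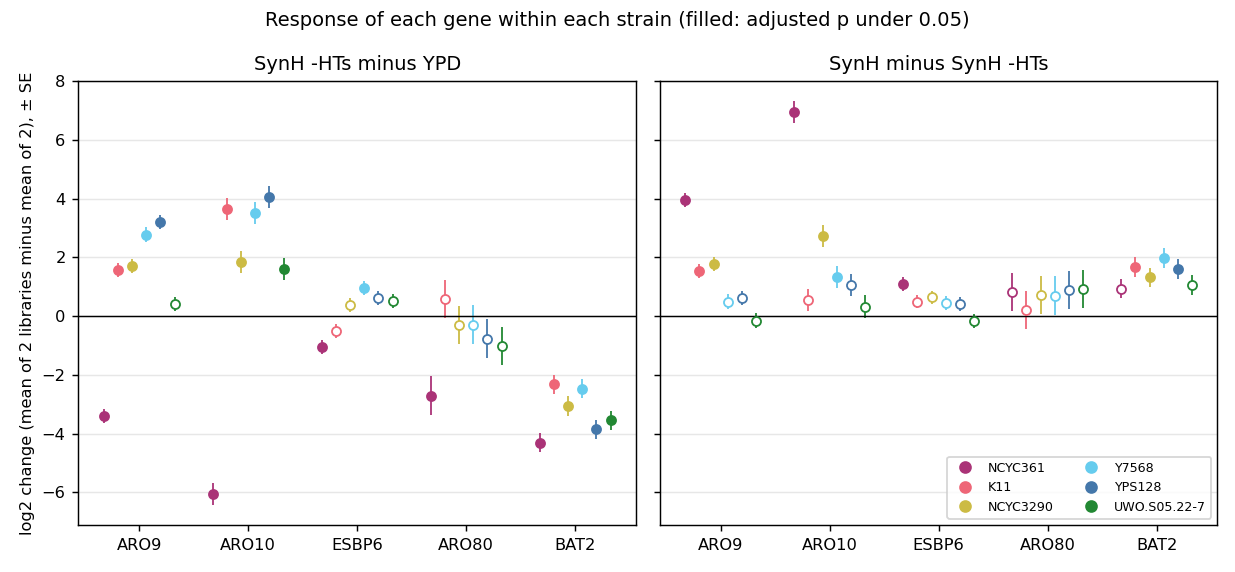
Log2 change ± SE within each strain for each gene (x axis), from YPD to SynH -HTs (left) and from SynH -HTs to SynH (right). Each point compares 2 libraries with 2, colours are strains, and filled points passed an adjusted p of 0.05. NCYC361 falls below 0 for ARO9 and ARO10 on the left and is the highest point for both on the right.

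The size of the toxin response differed among strains for both catabolic genes. By limma's F test over the 6 strains the adjusted p was 9.09e-08 for ARO10 and 4.61e-07 for ARO9, ranks 5 and 6 of the 5927 features, of which 2.38% were called. ESBP6 (adjusted p = 0.474), ARO80 and BAT2 did not pass. The resistant strains had a mean ARO9 response of 0.32 and the sensitive ones 2.73. This difference of -2.41 ± 0.60, with strains as replicates (3 against 2, NCYC3290 left out), had a limma p of 0.00367 and an adjusted p of 0.316. None of the 5 members passed in this comparison, where 0% of features were called. ARO9 was the 1 member with an unadjusted p under 0.05 in limma. The share of all features under that unadjusted limit was not computed, so no weight is put on it. For the level in SynH the classes likewise gave no call among the members (0% of features called), and no member had an unadjusted p under 0.05. ARO9 averaged 7.34 in resistant and 5.73 in sensitive strains there, and the 3 resistant strains had 6.05, 6.20 and 9.76.

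SynH -HTs minus YPD addresses the base medium. On average ARO10 rose by 1.44 ± 0.15 (2.72-fold, adjusted p = 9.56e-08) and ARO9 by 1.04 ± 0.10 (2.06-fold, adjusted p = 1.16e-08), which lie 1.75 and 1.35 above the all-feature median. Without NCYC361 these values were 2.94 for ARO10 (adjusted p = 4.22e-11) and 1.93 for ARO9 (adjusted p = 6.62e-11). These were 2 members called higher where 6.78% of features were. BAT2 fell by 3.27 ± 0.14 (9.61-fold lower, adjusted p = 5.64e-15), which is -2.96 relative to the all-feature median. ARO80 was also called lower (-0.75 ± 0.27, adjusted p = 0.0261), where 38.4% of features were called lower. Its value was -0.08 (adjusted p = 0.809) without replicate 2 in SynH -HTs and -0.36 (adjusted p = 0.379) without NCYC361. Median scaling (-0.38, adjusted p = 0.0534) and quantile normalization (-0.37, adjusted p = 0.0927) also took this call. ESBP6 did not pass (0.15 ± 0.10, adjusted p = 0.199), but it passed as higher in 4 of the alternatives run: median scaling (0.52, adjusted p = 0.0295), without NCYC361 (0.39, 0.00881), without K11 (0.28, 0.0309) and without replicate 1 in SynH -HTs (0.28, 0.0229).

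Behind these means 1 strain ran against the rest. In NCYC361 ARO10 fell by 6.05 ± 0.38 (66.1-fold lower, adjusted p = 1.33e-11) and ARO9 by 3.39 ± 0.24 (10.5-fold lower, adjusted p = 1.04e-10), where the median of all features was itself -0.89. In the other 5 strains ARO10 rose, by 4.07 in YPS128, 3.66 in K11, 3.52 in Y7568, 1.85 in NCYC3290 and 1.61 in UWO.S05.22-7. ARO9 rose in 4 of them, by 1.57 to 3.20, and stood at 0.42 in UWO.S05.22-7 without passing, though it passed there with voom on recovered reads (adjusted p = 0.0416). The ARO10 calls in NCYC3290 and UWO.S05.22-7 were lost without the strain's own YPD replicate 2 (adjusted p = 0.0965 and 0.112). A called rise in 5 strains together with a called fall in 1 was found in 8 of 5927 features (0.135%). With strains as the unit limma called 1.01% of features higher, but neither ARO9 (adjusted p = 0.344) nor ARO10 (adjusted p = 0.413), and the exact two-sided sign-flip permutation p was 0.344 and 0.438. The NCYC361 values in this comparison and in the toxin comparison rest on the same 2 SynH -HTs libraries. From YPD to SynH, which leaves those libraries out, ARO9 in NCYC361 changed by 0.55 (adjusted p = 0.0667) and ARO10 by 0.89 (adjusted p = 0.0591), neither past the threshold.

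The share of features called in the base comparison was 53.3% in NCYC361, 11.8% in K11, 4.42% in NCYC3290, 4.76% in Y7568, 5.43% in YPS128 and 10.6% in UWO.S05.22-7. BAT2 fell in 6 of 6 strains, by 2.33 in K11 to 4.31 in NCYC361 (5.02-fold to 19.8-fold lower), and each of these calls held in all 51 alternatives. A called fall in 6 strains was found in 0.624% of features. It was also the member lower in 6 of 6 strains by the exact two-sided sign-flip permutation test (p = 0.03125, the smallest possible, 0.067 adjusted over 15 tests).

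ARO80 fell in NCYC361 (-2.71 ± 0.65, adjusted p = 0.00156; 0.0548 without its SynH -HTs replicate 2) and passed in no other strain. ESBP6 fell in NCYC361 (-1.04 ± 0.23), but the median of all features there was close to it and median scaling turned the value to 0.04. ESBP6 rose in Y7568 (0.96 ± 0.23, adjusted p = 0.0143), a call lost without either of its YPD libraries (adjusted p = 0.0767 and 0.136) or its SynH -HTs replicate 2 (0.21). The F test among strains passed for ARO10 and ARO9 (adjusted p = 1.91e-11 for both, ranks 3 and 4 of 5927), for ESBP6 (0.000259) and for BAT2 (0.00925), where 29.6% of features were called. ARO80 did not pass (0.106).

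SynH minus YPD shares its libraries with both comparisons above and is given for completeness. ARO10 was 12.1-fold higher on average (3.59 ± 0.15, adjusted p = 4.55e-15) and ARO9 5.33-fold higher (2.41 ± 0.10, adjusted p = 1.5e-15), where 14.4% of features were called higher. ESBP6 was 1.55-fold higher (0.63 ± 0.10, adjusted p = 8.76e-06), a call lost with strains as the unit (adjusted p = 0.0594, or 0.0778 without a variance trend) and with means per medium and replicate number (0.144). BAT2 was 3.57-fold lower (-1.84 ± 0.14, adjusted p = 1.06e-10), where 34.2% were called lower, and ARO80 stood at -0.05 ± 0.27 (adjusted p = 0.9). For ARO9 the rise passed in K11, NCYC3290, Y7568 and YPS128, by 3.09 to 3.82. For ARO10 it passed in these and in UWO.S05.22-7, by 1.94 to 5.12. Called rises in at least 4 strains were found in 4.44% of features and in at least 5 strains in 2.82%.

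Levels averaged over the media differed among strains for all 5 members by limma's F test, where 68.8% of features were called. ARO9 ranked sixth of 5927 (adjusted p = 5.42e-20), ARO10 80th, ESBP6 246th, BAT2 791st and ARO80 2907th (adjusted p = 0.00373).

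ARO9 and ARO10 tracked each other closely. Over the 18 group means the Pearson correlation was 0.93, and ARO10 was the gene most like ARO9, and ARO9 the gene most like ARO10, among 4016 candidates with a mean of at least 10 RPKM. The groups share strains, media and library totals, so this is a description and has no p. ESBP6 came second for ARO9 (0.85), ahead of ROT2 (0.78) and MPO1 (0.77), while ARO9 was the nearest gene to ESBP6, followed by SER3 (0.81), PEX2 (0.75) and ARO10 (0.74). After ARO9, the genes most like ARO10 were TGL3 (0.77), CWP1 (0.77) and ORM2 (0.75). UWO.S05.22-7 held ranks 1 to 3 in the order of group means for ARO9, ARO10 and ESBP6 alike. These correlations therefore include its high level, and they were not computed without it. From YPD to SynH -HTs, ARO9 rose by 1.57 in K11 while ESBP6 stood at -0.51 without passing. In each other strain both values had the same sign there.

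Over the same 18 group means ARO80 did not share this likeness, with a correlation of -0.01 to ARO9 and 0.07 to ARO10. These values pool strains and media and do not describe changes within a strain. The nearest genes to ARO80 were ROD1 (0.94), SEC6 (0.92), HER1 (0.92) and USA1 (0.92). In NCYC361 the group with the highest ARO80 level, YPD, had ARO10 at 5.02, but UWO.S05.22-7 in SynH, with the highest ARO10, had ARO80 at 2.41. BAT2 was nearest to TRP1 (0.90), YGR161W-C (0.89), CFF1 (0.88) and CUP9 (0.88), and its correlation to ARO9 was -0.29.

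**Figure D5:**
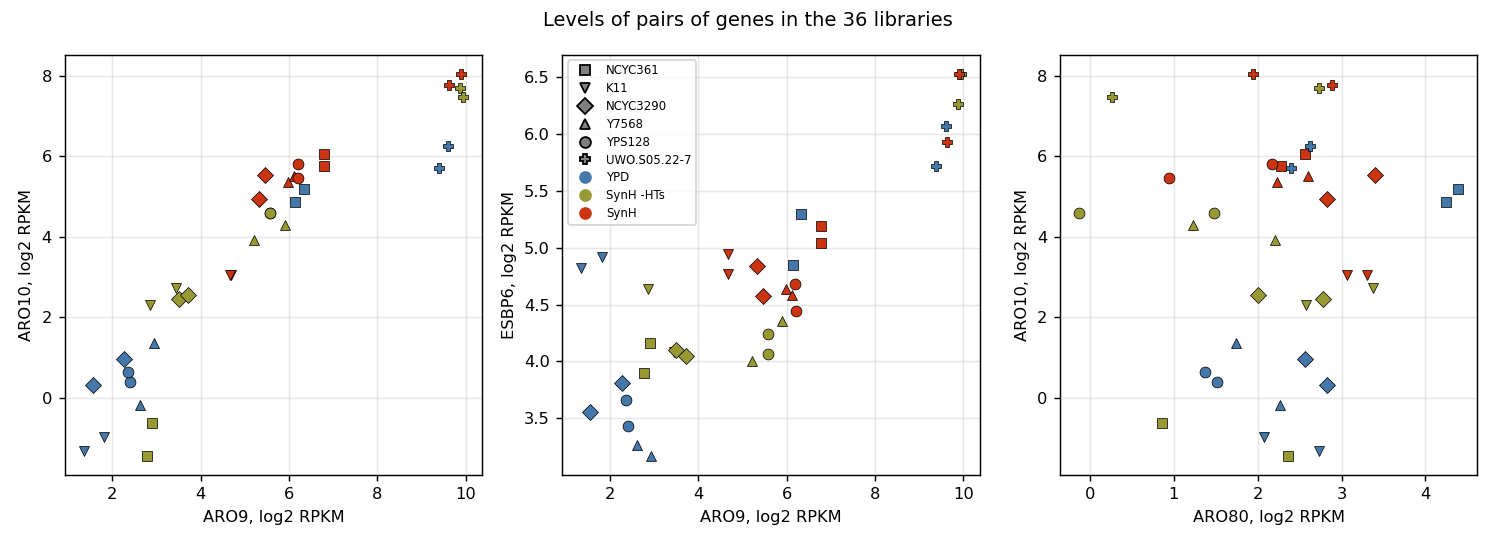
Levels in log2 RPKM of ARO10 against ARO9 (left), ESBP6 against ARO9 (middle) and ARO10 against ARO80 (right) in the 36 libraries, with symbols for strains and colours for media. ARO9 and ARO10 lie along 1 band from K11 in YPD to UWO.S05.22-7, and ARO10 against ARO80 shows no such band.

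ARO9 stood above ARO10 on the per-length scale by a median of 1.86 log2 units in the 12 YPD libraries, 1.23 in SynH -HTs and 0.73 in SynH, and was the higher gene in 35 of 36 libraries. These medians were not tested. The same order of media held for the group means of 4 strains, but not in K11 (2.73, 0.65 and 1.62, the first from 5 and 4 ARO10 reads) or NCYC361 (1.22, 3.87 and 0.87). The widest gap was in NCYC361 in SynH -HTs (3.87 between group means), where ARO10 had 3 and 5 reads. The narrowest was in NCYC3290 in SynH (0.17). In UWO.S05.22-7 the gap was 3.52 in YPD and 1.85 in SynH, with ARO10 group means of 5.98 and 7.91 while ARO9 differed by 0.26 (adjusted p = 0.486 in limma).

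The divergent neighbours that share the triplet arrays are given by their strain values. SDH6 (YDR379C-A), a respiratory complex assembly factor gene that starts 700 bases from ARO10, rose with toxins by 1.65 on average (adjusted p = 3.88e-06 in limma) and was higher in 6 of 6 strains, by 0.71 to 2.25. Its base medium value was -2.64 in NCYC361, the lowest, 2.17 in K11, 1.89 in YPS128, 0.98 in NCYC3290, 0.66 in UWO.S05.22-7 and -0.10 in Y7568, where ARO10 had risen by 3.52. The K11 and YPS128 values rest on YPD libraries with few or no SDH6 reads. These stood at 2.40 and -0.31 in K11 and -0.26 and 0.55 in YPS128, so both sizes depend on the added read. Few reads lay behind other SDH6 values too. Y7568 had 1.32 and 1.48 in YPD and 1.45 and 1.14 in SynH -HTs, and NCYC361 had 1.88 and 1.79 in SynH -HTs. The SDH6 sizes in both comparisons, with the Y7568 and NCYC361 base medium values among them, therefore also depend on the added read. SPL2 (YHR136C), a regulator gene of phosphate uptake beside ARO9, stood at -0.24 in the toxin comparison without passing (adjusted p = 0.493), with 2.02 in NCYC361 and -1.06 to -0.18 in the other 5 strains. In the base medium comparison SPL2 was -2.96 in NCYC361 and between -3.38 and -0.88 in the others. Both SPL2 libraries of NCYC361 in SynH -HTs (-1.34 and -1.11) held only the added read. Single libraries of Y7568 and UWO.S05.22-7 in SynH and of YPS128 in each hydrolysate did too. The sizes of these SPL2 values therefore depend on that read. Of the 10 genes with an array of at least 3 triplets, a set chosen after values were seen, 9 were tested and 5 were called higher with toxins, none lower, where 19.1% of features were called higher and 10.6% lower. These were ARO9, ARO10, SDH6, YMR315W (1.53) and YMR103C (1.30), so 2 are members and 1 shares its array with a member.

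Other genes of the pathway are described by lists of known roles. Their counts stand beside 19.1% of tested features called higher and 10.6% lower with toxins, and 6.78% called higher and 38.4% lower in the base medium comparison. The second aromatic aminotransferase gene, ARO8, rose with toxins by 0.54 ± 0.06 (adjusted p = 1.73e-07) and with the base medium by 0.48 ± 0.06. BAT1, for the mitochondrial branched-chain enzyme, rose by 1.03 ± 0.10 with toxins, past the threshold in 6 of 6 strains, and by 0.27 ± 0.10 with the base medium, where BAT2 fell by 3.27. In NCYC361, where ARO9 fell from YPD to SynH -HTs, ARO8 rose by 0.88 (adjusted p = 3.09e-05) and BAT1 by 1.58 (adjusted p = 1.16e-05).

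Of 4 other decarboxylase genes of the same family 1 rose with toxins and none fell, beside 19.1% of all features that rose: PDC5, a pyruvate decarboxylase gene (1.15 ± 0.24), which had also risen by 5.99 ± 0.24 from YPD to SynH -HTs. In the base medium comparison 3 of the 4 rose and none fell, where 6.78% of features rose and 38.4% fell. PDC5 closely resembles PDC1, and how shared reads were counted is not given in the sources used here. Of 16 genes for aldehyde reduction and oxidation 11 rose and 1, ADH4 (-0.33), fell, with a median of 0.48 against 0.09 over all features, of which 19.1% rose and 10.6% fell. The largest value was that of ADH7, an alcohol dehydrogenase gene (8.64 ± 0.13, adjusted p = 2.04e-23), with strain values of -0.26 to 12.9. In the strains other than K11 it had 1 to 25 reads in the SynH -HTs libraries and 49 to 122905 in SynH, and in K11 it had 0 reads in all 4 of these libraries. Its size depends on the added read, so no fold is given. ADH5, also an alcohol dehydrogenase gene, rose by 2.32 ± 0.14 and ALD4, a mitochondrial aldehyde dehydrogenase gene, by 2.22 ± 0.21. In the base medium comparison 4 of the 16 rose and 10 fell, among them ALD4 by 4.02 ± 0.21, with a median of -0.29 against -0.31 over all features, of which 6.78% rose and 38.4% fell.

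On the supply side, 2 of 6 uptake genes rose with toxins and 2 fell, beside 19.1% and 10.6% of all features. AGP1, a broad amino acid permease gene, rose by 1.26 ± 0.12 and GAP1, the general permease gene, fell by 0.73 ± 0.15. TAT2, the tryptophan and tyrosine permease gene, fell by 0.25 ± 0.07 with toxins and by 0.70 ± 0.07 in the base medium. Among 12 genes of aromatic amino acid synthesis 8 rose with toxins and 2 fell, with a median of 0.35 against 0.09 over all features. TRP4 rose by 0.69 ± 0.06 and ARO3 by 0.62 ± 0.10, and the falls were ARO7, for chorismate mutase (-0.55 ± 0.19), and PHA2, for prephenate dehydratase (-0.37 ± 0.09). Of 5 genes for export and esters 2 rose and none fell, PDR12 (4.56 ± 0.09), an organic acid exporter, and EHT1 (0.69 ± 0.07). In the base medium comparison 6.78% of all features rose and 38.4% fell. Of the uptake genes 1 rose and 4 fell there, with a median of -1.04 against -0.31 over all features. Of the synthesis genes 3 rose and 5 fell, and of those for export and esters 1 rose and 4 fell.

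Nitrogen control also acts on this pathway in yeast, through GATA factors that work with Aro80. Of 4 tested factor genes, GLN3 (0.61 ± 0.16) and GAT1 (1.30 ± 0.17) rose with toxins and none fell, where 19.1% of features rose. Of 8 tested target genes of these factors 5 rose and none fell, including UGA1, for a transaminase of GABA use (1.46 ± 0.10), and PUT1, for proline oxidase (1.47 ± 0.20). PUT1 was low, with a mean of 0.15 log2 RPKM over the libraries, and its strain values ran from -0.41 to 4.32. In the base medium comparison 6 of the 8 fell and none rose, with a median of -0.52 against -0.31 over all features, of which 38.4% fell. Of the 4 factor genes 1 fell there and none rose.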

How the data were processed

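RNA was sequenced in 36 libraries from 6 strains and 3 media, 2 libraries each. Per the submitters' processing notes, Trimmomatic 0.30, Bowtie2 and HTSeq 0.6.0 were used. Not given in the sources used here are the build, the annotation and the strand setting. The deposited values are log2 RPKM made by the authors, and from the values 1 read had been added to each count. Reads were recovered with RefSeq R64 coding lengths: 6003 of 6025 matched features gave whole reads in all libraries within 0.05, as did 99.8% of values. Rows naming no gene (6) were left out, and the 6717 others kept. R64 supplied the coordinates too and may differ from the authors' build. Reads carry no molecular identifiers, so a count of reads is not a count of separate molecules.

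Features averaging 1 RPKM or more (5927) were tested in R 4.3.3 with limma 3.58.1, fitted to the log2 values as deposited, with 1 mean for each of 18 groups, 18 residual degrees of freedom, a trended prior variance and Benjamini-Hochberg adjustment per comparison at 0.05. Strain differences were tested by F tests. Resistance classes were compared on strain means, 3 against 2. The fit was also run on simulated counts without any replicate shift, so that run does not cover the shift seen in SynH -HTs. Alternatives covered scaling, filters, the added read, recovered reads with voom, the unit of replication, and leaving out libraries or strains.

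The members and gene lists were chosen with earlier results of these data known. All 5 members are named whatever their values. Every list is given by its counts, with examples, except the 2 other aminotransferase genes, which are both named. The 4 genes most like each member by correlation are also named. The examples from the lists, the neighbours SDH6 and SPL2 and the genes with arrays were chosen after their values were seen. Replicate numbers did not pair the libraries across the media of a strain: of 18 same-numbered pairs within strains, 3 had deviations correlated above 0.1 (range -0.45 to 0.28). Between SynH -HTs and SynH the correlation was negative in every strain (-0.38 to -0.03), so the numbers were not free of structure. The main fit has no term for this.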

Additional observations from a re-analysis of the deposited data

Results flagged for a closer look

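In 5 of 25 sets of 6 strain values screened, 1 strain stood apart by Dixon's gap ratio, which exceeds 0.625 by chance in about 1 set in 20. NCYC361 stood apart for ARO10 in the toxin response (gap ratio 0.637, with 6.94 against 2.73 for the next strain) and in the base medium response (0.757, with -6.05 against 1.61). Both ratios use the same SynH -HTs libraries. K11 stood apart for ARO80 in the toxin response (0.688, with 0.21 against 0.70), where every strain value lies within the error of a single strain. UWO.S05.22-7 stood apart for the level of ESBP6 in SynH -HTs (0.86, with 6.39 against 4.36) and in SynH (0.667, with 6.22 against 5.12).

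Responses differed among the 6 strains by limma's F test in 6 cases. For the toxins these were ARO9 (adjusted p = 4.61e-07, strain responses -0.15 to 3.94) and ARO10 (adjusted p = 9.09e-08, 0.33 to 6.94). For the base medium these were ARO9 (adjusted p = 1.91e-11, -3.39 to 3.20), ARO10 (adjusted p = 1.91e-11, -6.05 to 4.07), ESBP6 (adjusted p = 0.000259, -1.04 to 0.96) and BAT2 (adjusted p = 0.00925, -4.31 to -2.33). Causes of these differences were not tested.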

How the results depend on the processing

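ARO9, ARO10 and BAT2 kept their direction in the averaged toxin and base medium comparisons under every alternative run. For the toxins ARO9 lay between 0.85 and 1.67 and ARO10 between 1.19 and 2.52, both lowest without NCYC361, and BAT2 between 1.15 and 1.71. ARO80 kept its toxin call in 19 of 59 alternatives, median scaling and quantile normalization among them, and it lost it with no filter (adjusted p = 0.0546), no variance trend (0.0509), the replicate block (0.0977) and 5 of 6 strains left out in turn (0.0609 to 0.105), with values of 0.71 for the first 3 and 0.68, 0.81, 0.70, 0.71 and 0.67 without NCYC361, K11, NCYC3290, Y7568 and YPS128. Leaving out single libraries gave 0.50 to 0.91. The replicate block left the counts of members called within 1.5 times those reported, but ARO80 also lost its base medium call (-0.75, adjusted p = 0.0561). Within strains the numbers did not pair the libraries across media, yet within a medium they moved the all-feature medians 1 way in 6 of 6 strains (-1.06 to -0.43 in SynH -HTs, 0.13 to 0.49 in SynH).

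Means over strains per medium and replicate number left 3 members called higher with toxins (ARO80 0.71, adjusted p = 0.684, and ESBP6 0.48, adjusted p = 0.402, lost theirs). Strains as the unit left 1 member called in the base medium comparison, with and without a variance trend, and without the trend 3 called with toxins (ARO9 1.37 and ARO10 2.15 lost). Median scaling left 2 members with strain differences in the base medium response, took the toxin call of ESBP6 (0.35) and gave ESBP6 a call of 0.52 in the base medium (adjusted p = 0.0295). Without K11, which leaves NCYC361 as the sole sensitive strain with no spread of its own, 2 members passed for the toxins between classes, where 0.523% of features did. The base value of ESBP6 turned to -0.011 without Y7568. The ARO80 value from YPD to SynH, which never passed, turned to 0.20 under median scaling, 0.15 under quantile normalization, 0.32 without NCYC361, and lay between -0.35 and 0.26 with libraries left out. Leaving out the 6 libraries of 1 medium and replicate number gave ARO80 toxin values of 0.029 to 1.38, 5 to 15 pairs called for the toxins and 2 to 5 members with strain differences in the base response. The causes were not tested. Depth limits ARO10 in NCYC361 in SynH -HTs and K11 in YPD, and ARO80, with 10 to 578 reads per library.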
